A study of Homo sapiens with 6 samples.

Results

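Mediator is the large complex that carries signals from DNA-bound activators to RNA polymerase II at promoters. Its head and middle modules contact the polymerase, its tail receives activators, MED14 runs through the core as a scaffold, and a separable kinase module docks on the core and blocks its contact with the polymerase. That kinase module holds a cyclin-dependent kinase (CDK8 or its paralogue CDK19), cyclin C (CCNC), MED12 or MED12L, which activates the kinase, and MED13 or MED13L, which ties the module to the core. The genes described here were chosen by symbol: MED followed by a number, with or without a final L, plus CDK8, CDK19 and CCNC. They came to 33 of the 53719 rows of the count table. The complex itself was picked because MED13L, one of its genes, differed between the 2 groups of this study. Changes of its genes between these groups are therefore given as a description, with errors but without their p-values. Where a member is said to pass a threshold or to have the smallest p, that is description too and no test of the complex.

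All libraries came from H9, a long-established line of human embryonic stem cells, held in RSeT medium under conditions for a naive state. In the knockdown group (genotype label "ALR Knockdown", 3 libraries, titled Sense3) the cells received a gapmer, an antisense oligonucleotide that makes RNase H cut its target, against alpha satellite RNA, the transcript of the human centromere repeats. In the control group (3 libraries) they received a control gapmer, and RNA was taken 48 h after transfection in both. The libraries of a group carry the letters a, b and c. One cell line was used, and nothing in the labels says that the libraries of a group came from separate cultures, so the spread between them may be technical.

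Total counts ran from 25087629 to 36576752 per library. Knockdown library a stood apart: it had counts in 29678 rows, where the other 5 had counts in 25898 to 26788. Its 28S ribosomal RNA was at 84.4 CPM (read counts scaled to library size). Knockdown libraries b and c had 7.98 and 3.39 CPM of it, and controls a, b and c had 1.04, 1.28 and 2.57. Every knockdown library was above every control in 28S, and its part in the results was not tested. Without knockdown library a, MED13L had a log2 fold change of -0.96 ± 0.10 and CDK19 of -0.41 ± 0.11 (SE), close to the values with it. Of 12 pluripotency markers, 11 averaged at least 1 CPM. The list summed to 5605 to 6227 CPM in knockdown and 5745 to 5881 in control libraries. The sum hides shifts in both directions. POU5F1 and LIN28A were higher in every knockdown library than in any control, and LIN28B, DPPA4, PRDM14 and TERF1 were lower. Of all genes tested, 9.55% were higher and 9.37% lower without overlap of the groups. SOX2 was listed at 0 in every library. Of protein-coding genes whose span was covered to 99% or more by other genes, 85.8% were listed at 0 in all libraries. The zeros of SOX2, and of KHDC1L and THY1 below, are therefore given only as listed values and not read as absent RNA. Of 10 naive-state markers, 7 averaged at least 1 CPM, and the list summed to 73.3 to 81.5 CPM in knockdown and 73.3 to 78.97 in control libraries. TFCP2L1 had 23.9 to 32.15 CPM, DPPA3 18.1 to 21.9 and KLF4 16.5 to 19.1, while KLF17 reached at most 0.353 CPM, DPPA5 lay between 0.809 and 1.23, and KHDC1L was at 0. The fibroblast list, of which 3 of 8 genes averaged at least 1 CPM, summed to 280 to 312.5 CPM in knockdown and 324 to 361 in control libraries, nearly all of it VIM, COL1A2 and COL1A1, while DCN stayed at or below 0.388 CPM, LUM at or below 0.0396 and THY1 at 0. The mesoderm list, with 2 of 6 genes at that level, summed to 14.3 to 16.2 against 11.7 to 14.1 CPM. The part of these lists in the results below was not tested. In bulk RNA, fewer cells of a type and less RNA per cell cannot be told apart.

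MED13L, the member the results turn on, lies on the minus strand of chromosome 12 at chr12:115953872-116277719 (GRCh38, GENCODE 29, ENSG00000123066.8), a span of 323.8 kb with 32 annotated transcripts. The stretch from 250 to 41 bases before its RefSeq start is shown with the same stretch of MED12, the kinase module gene whose values were higher in the knockdown libraries. Both are RefSeq sequences of GRCh38.p14 and end before the start in either annotation. MED13L is at chr12:116277734-116277943 on the minus strand and MED12 at chrX:71118346-71118555 on the plus strand. Capitals mark matches, on either strand, to the GC box GGGCGG, the CCAAT box CCAAT, the TATA box TATAAA and the E-box CACGTG.
MED13L: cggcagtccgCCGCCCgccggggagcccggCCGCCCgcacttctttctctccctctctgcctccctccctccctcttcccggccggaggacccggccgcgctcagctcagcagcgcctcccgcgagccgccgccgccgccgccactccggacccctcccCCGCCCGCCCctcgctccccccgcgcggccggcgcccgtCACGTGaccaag
MED12: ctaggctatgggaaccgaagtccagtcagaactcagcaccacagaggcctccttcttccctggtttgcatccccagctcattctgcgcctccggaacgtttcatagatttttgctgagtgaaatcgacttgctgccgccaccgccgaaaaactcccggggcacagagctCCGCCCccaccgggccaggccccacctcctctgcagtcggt
The MED13L stretch is 80.5% G and C and holds 4 GC boxes, of which 2 overlap by 2 bases, and 1 E-box. The MED12 stretch holds 1 GC box. Neither holds a CCAAT or TATA box in this window. Among all 35116 such windows, 37.2% hold the GC box, 5.04% the E-box, 28.8% the CCAAT box and 7.86% the TATA box. Of the 33 members, 25 had an entry among these promoters, and MED13, the paralogue of MED13L, had none. A match is a string of letters and not a bound site.

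In the controls MED13L had 258, 235 and 265.6 CPM (libraries a, b and c, scaled by TMM), and in the knockdown libraries 122, 118 and 141 CPM. The groups were far apart: the highest knockdown library lay well below the lowest control. Knockdown libraries averaged 127 ± 12.2 CPM and controls 253 ± 15.7 (SD, n = 3 each). The log2 fold change was -0.99 ± 0.08 (SE), which leaves 50.3% of the control level. MED13L was 1 of the 155 genes of the 19721 tested, 0.786%, that passed an adjusted p of 0.05 in edgeR's quasi-likelihood test (128 lower and 27 higher). The split of these calls depended on scaling, with 102 lower and 56 higher by library size alone and 112 lower and 45 higher by upper quartile. By size of fall MED13L took place 8 among the 155. Its log2 fold change lay between -1.09 and -0.93 over the 18 alternative analyses, which reuse the values that picked the complex and are no independent support. Of the exon bases of MED13L, 0.567% are shared with another annotated gene, an antisense RNA, and 1.13% of the 50-base words of its longest transcript occur in a transcript of another gene. None of those words were shared with MED13.

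MED13, the paralogue that takes the same place in the kinase module, had 201, 231 and 223 CPM in the controls and 207, 213 and 209 CPM after knockdown. The ranges overlapped, and the log2 fold change was -0.06 ± 0.07 (SE, n = 3 each). Because both genes are counted in the same library, the share of their joint counts that fell to MED13L does not depend on scaling. In the controls it was 56.2%, 50.5% and 54.3% (95% Wilson intervals 55.3 to 57.0, 49.7 to 51.3 and 53.6 to 55.1). After knockdown it was 37.2%, 35.7% and 40.3% (36.2 to 38.2, 34.8 to 36.6 and 39.3 to 41.4). Counts of the pair were in favour of MED13L in all 3 controls and in favour of MED13 in all 3 knockdown libraries. These intervals describe counting error within a library and leave out differences between libraries. The intervals of the 3 controls did not overlap one another. Amplified reads carry no identifier of the molecule they came from, so the intervals may be too narrow even for counting error.

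**Figure D1:**
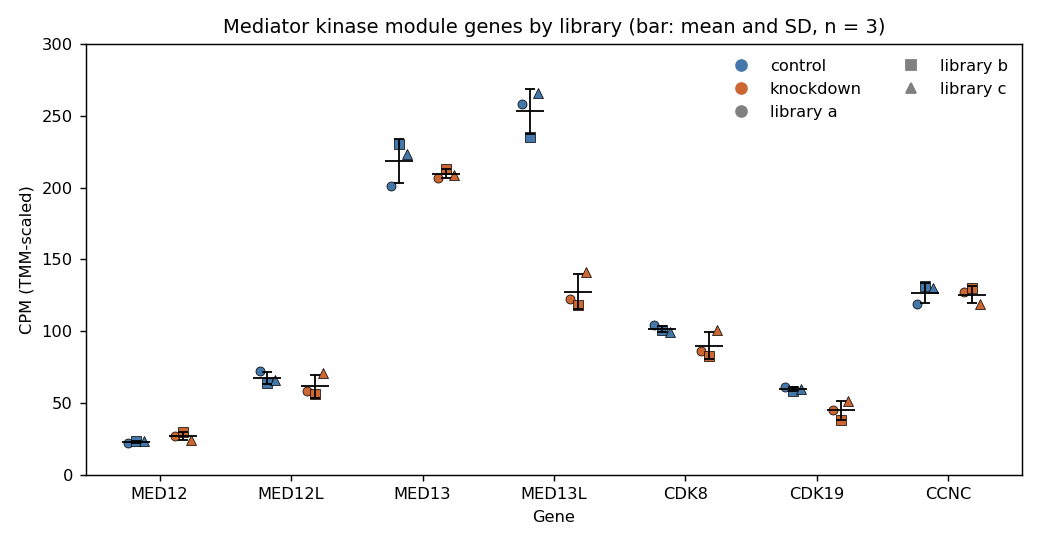
CPM (TMM-scaled, y axis) of the 7 kinase module genes (x axis) in each library, with blue for control, orange for knockdown, a symbol for each library letter and bars for the mean and SD (n = 3). MED13L lies between 235 and 265.6 CPM in the controls and between 118 and 141 CPM in the knockdown libraries, while MED13 and CCNC overlap between groups.

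The kinases came next. CDK19, the less studied of the alternative kinases, had 60.9, 58.1 and 60.01 CPM in the controls and 45.05, 38.4 and 51.4 CPM after knockdown. Every knockdown library lay below every control, with a log2 fold change of -0.41 ± 0.09 (SE, n = 3 each). CDK19 did not pass the adjusted threshold in the edgeR test, and did so in 7 of the 18 alternatives: DESeq2, the robust fit, no low-count filter, the replicate block, removal of the gene span trend or the GC trend, and the fit without knockdown library c.

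CDK8, the better known kinase, had 104, 100.7 and 99.6 CPM in the controls and 86.4, 82.8 and 100.7 CPM in the knockdown libraries. Knockdown library c lay among the controls and the other knockdown libraries below them, and the log2 fold change was -0.17 ± 0.08 (SE). CDK8 passed the threshold only in the fit without knockdown library c, at -0.28 ± 0.06 (SE). Within the CDK8 and CDK19 pair, CDK19 took 36.9%, 36.6% and 37.6% of the counts in the controls and 34.3%, 31.7% and 33.8% after knockdown. The 2 sets of shares did not overlap, though the Wilson intervals of knockdown library a (32.8 to 35.8) and control library b (35.3 to 38.0) did.

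CCNC, the cyclin partner of both kinases, had 119, 131.5 and 129.9 CPM in controls and 127, 129.99 and 119 CPM in knockdown libraries. These values overlapped, with a log2 fold change of -0.01 ± 0.07 (SE), and its sign was kept in 12 of the 18 alternatives. MED12, which activates CDK8, had 21.9, 23.2 and 23.5 CPM in controls and 27.0, 30.0 and 24.2 CPM in knockdown libraries. All knockdown values of MED12 were above the controls, library c by a small margin, and the log2 fold change was 0.25 ± 0.09 (SE), short of the threshold in edgeR and in all 18 alternatives. Without knockdown library b it was 0.16 ± 0.09 (SE).

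MED12L, the paralogue of MED12, had 72.0, 63.9 and 65.9 CPM in controls and 58.1, 56.1 and 70.9 CPM in knockdown libraries. Knockdown library c again lay inside the control range, and the log2 fold change was -0.13 ± 0.09 (SE). It was -0.26 ± 0.07 without that library, and -0.07 ± 0.10 without knockdown library b or without control library a. MED12L took 73.4% to 76.7% of the counts of its pair in the controls, and 68.3%, 65.1% and 74.6% after knockdown, which overlapped. The count of MED12L is uncertain, since 33.1% of the 50-base words of its longest transcript also occur in IGSF10, a gene on the other strand.

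**Figure D2:**
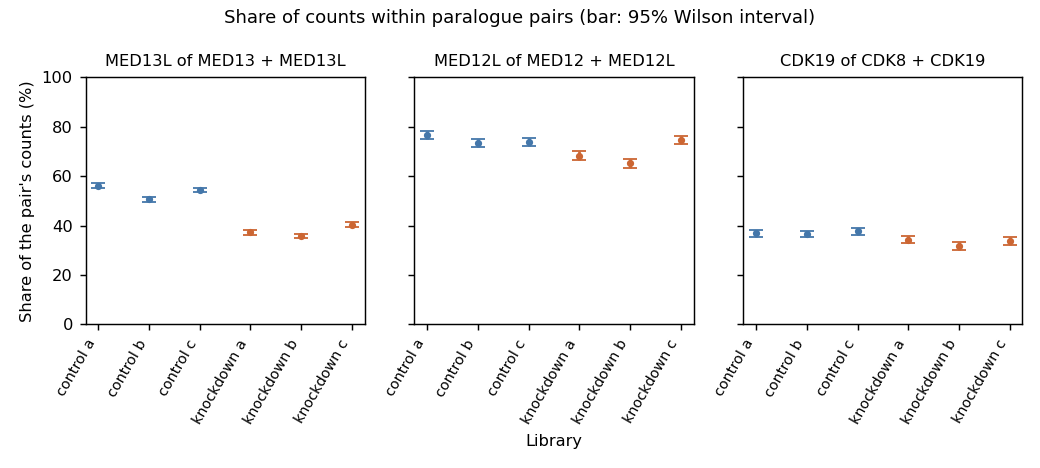
Share of each paralogue pair's counts (y axis, %) in each library (x axis), with 95% Wilson intervals as bars, blue for control and orange for knockdown. The MED13L share is 50.5% to 56.2% in the controls and 35.7% to 40.3% in the knockdown libraries, and the CDK19 share 36.6% to 37.6% against 31.7% to 34.3%.

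Of the 7 kinase module genes, 6 had a log2 fold change below 0 and 1, MED12, above it. Their median was -0.13, where the median of all genes tested was 0.02, and over the alternatives the module median lay between -0.26 and -0.06. The summed level of the module was 837, 843 and 867 CPM in the controls and 673, 669 and 716 CPM after knockdown, most of the gap being MED13L. Knockdown library c was the nearest of the 3 to the controls for MED13L, MED12L, CDK8, CDK19 and MED12. Without it 4 of the 32 tested members passed as lower (MED13L, CDK19, CDK8 and MED27). That fit called 1309 of 20456 genes, 1112 lower and 197 higher, and nothing is read from the 4.

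The 26 genes of the core had smaller differences, from -0.18 to 0.21 on the log2 scale, with 13 below 0, 12 above 0 and 1 without counts. None passed the adjusted threshold, and 1 was lower and 2 were higher at an unadjusted p under 0.05. Counting all members, 32 of 33 had enough counts to be tested. Of these, 1 was called lower, against 0.649% of all genes tested, and 0 were called higher, against 0.137%. The 1 is the gene for which the complex was picked, so nothing is read from that count. At an unadjusted p under 0.05 there were 4 lower members (MED13L, CDK19, CDK8 and MED17), against 7.57% of all genes. There were 3 higher ones (MED12, MED16 and MED25), against 6.68% of all genes. DESeq2 called 2 members lower and 0 higher, where it called 383 lower and 118 higher of 12886 genes. The groups did not overlap in 5 lower members (15.6% of 32, against 9.37% of all genes) and 3 higher ones (9.38%, against 9.55%). These counts come from the contrast that picked the complex, and nothing is read from them.

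**Figure D3:**
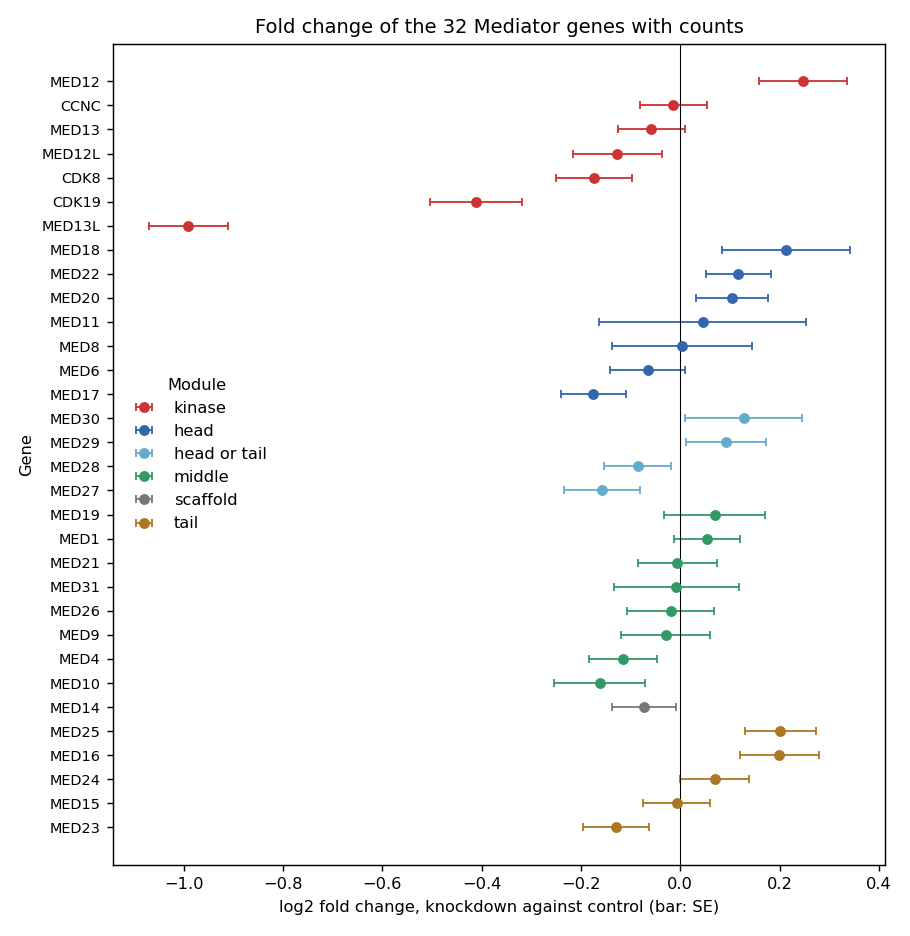
The log2 fold change of knockdown against control (x axis, bars for SE) of the 32 Mediator genes with counts (y axis), coloured by module. MED13L at -0.99 and CDK19 at -0.41 lie outside the range of the core genes, which is -0.18 to 0.21, on the lower side, and MED12 at 0.25 on the upper side.

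In the head, which docks on the polymerase, 7 genes had a median log2 fold change of 0.05. MED17, a central head subunit, had 56.8, 62.9 and 60.7 CPM in controls and 52.6, 53.2 and 54.0 CPM in knockdown libraries. Its knockdown values were tightly grouped and all below the controls, with a log2 fold change of -0.18 ± 0.07 (SE). MED22 had 65.4, 63.8 and 63.4 CPM in controls and 66.8, 74.1 and 67.7 CPM in knockdown libraries, higher without overlap, at 0.12 ± 0.07 (SE). MED22 stood at 0.05 ± 0.07 with the span trend removed, 0.04 ± 0.08 with the GC trend removed and 0.06 ± 0.07 without knockdown library b. MED6, MED8, MED11, MED18 and MED20 overlapped between groups, with log2 fold changes of -0.07 to 0.21. MED11 had the lowest mean of the members with counts, 4.12 ± 0.940 CPM in knockdown and 3.998 ± 0.815 in control libraries, and 36.9% of its exon bases are exons of an antisense RNA or of CXCL16 as well. MED17 shares 13.5% of its exon bases with AP001273.2 or TAF1D and 42.2% of the 50-base words of its longest transcript with other genes, while MED22 shares 6.59% with a pseudogene.

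MED27, MED28, MED29 and MED30, which different schemes place in the head or the tail, had a median log2 fold change of 0.003. MED27 had the smallest p of the 4, with 67.8, 64.6 and 63.4 CPM in controls and 57.4, 53.5 and 64.7 CPM in knockdown libraries. Library c of the knockdown group again fell within the control range, and the log2 fold change was -0.16 ± 0.08 (SE). MED27 shares 34.9% of the 50-base words of its longest transcript with the pseudogene CRSP8P, and MED28 shares 32.05% of its exon bases with FAM184B, so both counts are uncertain.

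In the middle module the median was -0.01 over 8 genes with counts. MED10 alone had groups that did not overlap, with 14.8, 16.04 and 15.2 CPM in controls and 14.7, 13.1 and 13.3 CPM in knockdown libraries, the closest values of the groups being almost equal. Its log2 fold change was -0.16 ± 0.09 (SE). MED1, the subunit that nuclear receptors bind, had 130 ± 3.36 CPM in control and 135 ± 8.55 in knockdown libraries, a log2 fold change of 0.05 ± 0.07 (SE). MED26, which joins the core in place of the kinase module and brings in elongation factors, had 16.6 ± 0.529 and 16.4 ± 1.04 CPM, a log2 fold change of -0.02 ± 0.09 (SE), with 50.1% of its exon bases shared with other genes. MED31 shares 58.35% of its exon bases with TXNDC17 on the other strand. The scaffold MED14 had 205, 211 and 204 CPM in controls and 188, 194 and 208 CPM in knockdown libraries, which overlapped at a log2 fold change of -0.07 ± 0.06 (SE).

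MED7, a middle subunit that hinges the module, was listed at 0 in all 6 libraries. It lies on the minus strand at chr5:157137412-157159019 (GRCh38). In the table, zeros were common among genes that lie inside others. Of 1062 protein-coding genes whose span was covered to 99% or more by other genes of the table, 85.8% were listed at 0 in all libraries, and of the 575 among them with under 5% of their exon bases in exons of other genes, 91.5%. Of 10812 protein-coding genes with no other gene in their span, 7.02% were at 0. The 0 of MED7 is given only as a listed value. How reads in introns and in overlapping genes were counted is not given in the sources used here, and the table cannot tell spliced from unspliced RNA.

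In the tail, which receives activators, the median was 0.07 over 5 genes. MED25, an activator-binding subunit, had 34.9, 34.0 and 33.4 CPM in controls and 36.9, 41.7 and 39.0 CPM in knockdown libraries, higher without overlap, at a log2 fold change of 0.20 ± 0.07 (SE), which was 0.09 ± 0.08 with the GC trend removed. MED23, which receives the growth factor signal through ELK1, had 55.0, 56.5 and 55.6 CPM in controls and 47.7, 52.1 and 52.9 CPM in knockdown libraries. All its knockdown values were lower, at -0.13 ± 0.07 (SE). MED16 had a log2 fold change of 0.20 ± 0.08 (SE) with overlapping groups, and MED15, which binds the sterol factor SREBP, and MED24 had -0.01 ± 0.07 and 0.07 ± 0.07 (SE). MED25 shares 19.8% of its exon bases with PTOV1-AS1 or a microRNA gene.

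Summed over all members, Mediator genes took 2137, 2172 and 2158 CPM in the controls and 1944, 2006 and 2007 CPM in knockdown libraries. Without MED13L the sums were 1879, 1936 and 1892 CPM against 1821, 1888 and 1865 CPM, and the groups overlapped. The median log2 fold change of the 32 members was -0.01. Its sign depended on scaling: with library size alone it was 0.02, with upper-quartile scaling 0.006 and with DESeq2 size factors -0.02.

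Long members lay below 0, though most members below 0 were not long. All 6 members of 100 kb or more (MED12L, MED13L, MED27, CDK19, CDK8 and MED13) had log2 fold changes below 0, with a median of -0.17, while the 26 tested members under 100 kb divided into 13 below and 13 above 0, with a median of -0.001. Across the 32 members, log2 fold change and log10 span had a Pearson r of -0.57 and a Spearman rho of -0.53 (-0.52 and -0.48 without MED13L). The points share the same libraries, and 5 of the 6 long genes belong to the kinase module. Among all genes with a known span, the 3464 of 100 kb or more had a median of -0.04, with 58.9% below 0 and 1.62% called lower, and the 12474 shorter ones had a median of 0.03, with 41.1% below 0 and 0.401% called lower. Across all 15938 of them Spearman's rho was -0.17. When each library's trend on span was removed, MED13L stood at -0.93 ± 0.09, CDK19 at -0.38 ± 0.09, CDK8 at -0.16 ± 0.09 and MED12L at -0.06 ± 0.09 (SE). The members also differed in base composition, and a higher GC content of the longest transcript went with a higher fold change (Pearson r 0.41, Spearman rho 0.54, n = 32).

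**Figure D4:**
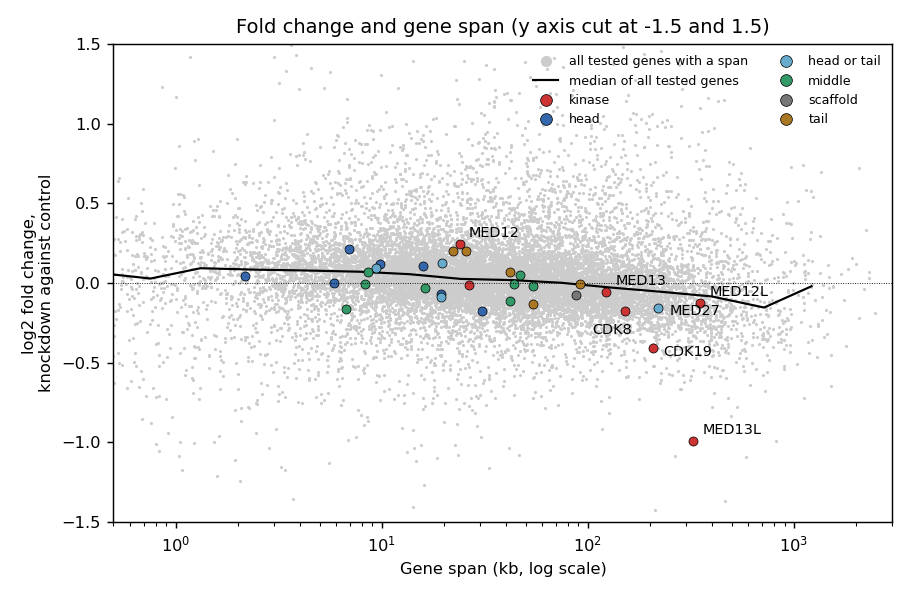
Fold change of knockdown against control (y axis, log2) against gene span (x axis, kb, log scale) for all tested genes with a span (grey; the line is their median in span bins) and for the 32 members, coloured by module. Of the 15938 genes, 30 lie beyond the y axis and 187 beyond the x axis. The 6 members of 100 kb or more all lie below 0, and MED13L lies farthest from the median line among the members.

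Genes that work beside Mediator were then compared in 8 lists by role, 127 genes in all, of which 116 had enough counts. With edgeR's quasi-likelihood test adjusted over all genes, 0 of the 116 passed, and 13 were lower and 7 higher at an unadjusted p under 0.05, where the shares over all genes tested were 7.57% and 6.68%. DESeq2 called 1 of them, KLF6, where it called 501 of 12886 genes. The 116 had a median log2 fold change of 0.02, as had all genes tested. Over the alternatives the medians of the general factors, TFIID subunits, elongation factors and immediate-early genes took both signs.

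RNA polymerase II subunits were the one list with all its values on the same side: 11 of 11 tested genes had log2 fold changes above 0, from 0.04 to 0.33, with a median of 0.09. The median was above 0 in all 18 alternatives, from 0.03 to 0.13, and 9 to 11 of the 11 genes were above 0 in each. None passed the test. POLR2E, a subunit shared by the nuclear polymerases, had the smallest p. Controls averaged 74.5 ± 6.49 CPM and knockdown libraries 86.8 ± 6.58 (SD, n = 3 each), at 0.22 ± 0.08 on the log2 scale (SE), and edgeR gave an adjusted p of 0.240.

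Among 17 general transcription factors the median was -0.006, and MNAT1, which assembles the kinase of TFIIH, had the smallest p with -0.32 ± 0.11 (SE; edgeR adjusted p = 0.237). The groups of MNAT1 overlapped, with knockdown library c at 98.2 CPM and controls at 94.2 to 102 CPM. GTF2F1, another of these factors, had nearly the same p in the other direction, without overlap, at 0.21 ± 0.07 (SE; edgeR adjusted p = 0.238). Among 15 TFIID subunits the median was -0.02, and TAF4B stood at -0.17 ± 0.07 (edgeR adjusted p = 0.307). Among 23 pausing and elongation factors the median was 0.04, and CDK9, the kinase that releases paused polymerase, stood at 0.19 ± 0.07 (edgeR adjusted p = 0.255). Among 17 enhancer cofactors the median was -0.04, and KAT2B, an acetyltransferase, stood at -0.26 ± 0.08 (edgeR adjusted p = 0.194). Among 17 activators known to contact Mediator subunits the median was 0.06, and THRA, a thyroid hormone receptor, stood at 0.23 ± 0.09 (edgeR adjusted p = 0.277). THRA overlaps the span of MED24, and how reads in the shared stretch were counted is not given in the sources used here.

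Of the ubiquitin ligase that marks MED13 and MED13L for destruction, all 4 genes were tested. Its substrate receptor FBXW7 had 126, 115 and 123 CPM in controls and 93.6, 89.0 and 126 CPM after knockdown. Its log2 fold change was -0.24 ± 0.11 (SE), with an adjusted p of 0.343 in edgeR. Knockdown library c again lay with the controls. Growth factor signals switch on some immediate-early genes through ELK1 and MED23. The median of the immediate-early list was 0.04 over 12 tested genes, with no stable sign. It was -0.14 without knockdown library a, -0.03 without knockdown library b, -0.12 without control library c and -0.07 at a mean count of at least 50, and it was also below 0 with either trend removed. At an unadjusted p under 0.05, 4 of the 12 were lower and 0 higher, where the shares over all genes tested were 7.57% and 6.68%. The lower ones were FOSL1, with overlapping groups, and JUN, ATF3 and KLF6, whose groups did not overlap. FOSL1 stood at -0.52 ± 0.22, JUN at -0.28 ± 0.08 and ATF3 at -0.27 ± 0.08 (log2 scale, SE). Of all genes tested, 9.37% were lower without overlap. Nothing is read from these few genes about the list. KLF6 was the nearest to the threshold of all the lists, with 89.99, 89.9 and 94.4 CPM in controls and 73.7, 78.5 and 72.6 CPM in knockdown libraries. The groups of KLF6 were well separated, by -0.29 ± 0.06 on the log2 scale (SE), with an adjusted p of 0.0662 in edgeR.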

How the data were processed

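RNA of 3 knockdown and 3 control libraries of H9 cells was sequenced from directional NEBNext Ultra II libraries, per the labels' protocols. The authors deposited raw read counts per gene symbol, 1 column per library. Trimmomatic 0.39, STAR 2.7.8a, featureCounts, Subread 2.14.2 and build hg38 are named in the submitters' processing notes, with no role or order. The annotation and the strand setting are not given in the sources used here.

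Genes were tested with edgeR 4.0.16 (R 4.3.3): filterByExpr, TMM scaling, quasi-likelihood F-test with the group as its only term, two-sided, Benjamini-Hochberg adjustment over the 19721 genes kept, threshold 0.05. CPM values use TMM-scaled library sizes, except the 28S value, which uses total counts. Alternatives used other scalings, DESeq2 1.42.0, limma-voom (limma 3.58.1), a robust fit, other low-count filters, removal of mitochondrial and rRNA rows, of span or GC trends (natural splines, 5 degrees of freedom, 15938 genes), a replicate block, and each library left out, 18 in all. The labels do not say that libraries with the same letter share a day or culture, so letters were not taken as pairs. The procedure was tested on simulated data.

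Rows were matched to GENCODE 29 (GRCh38) by name (31459) or through RefSeq synonyms (1288). The members and lists were chosen with earlier results of these data known. Full values are given for kinase module genes, members past the threshold, members of the other modules whose groups do not overlap (or the smallest p), and the smallest p of each list. Further members and marker genes, such as MED1, MED15, MED16 and MED26, were named for their known roles or values after those values were seen.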

Additional observations from a re-analysis of the deposited data

How the results depend on the processing

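MED13L had log2 fold changes of -1.09 to -0.93 over the 18 alternatives, a description of the values that picked the complex. The medians of the head, head or tail, middle and tail genes took both signs over them. The number of genes past the threshold was 155, and 501 with DESeq2, 1064 with no low-count filter, 393 with the replicate block, 243 without the gene span trend, 238 without the GC trend, and 26 to 1309 when each library was left out (102, 61 and 1309 without knockdown a, b and c, 26, 42 and 42 without control a, b and c). Members called lower numbered 1, and 2 (MED13L and CDK19) with DESeq2, the robust fit, no low-count filter, the replicate block and either trend removed, and 1 to 4 when each library was left out. Of all genes, DESeq2 called 383 of 12886 lower, the robust fit 158 of 19721 and the fit with no low-count filter 661 of 32300. The replicate block called 320 of 19721 lower, and removal of the span or GC trend 181 and 194 of 15938. Without knockdown library c, 1112 of 20456 genes were called lower. No member was called higher in any alternative. List genes past the threshold numbered 0, and 1 with DESeq2, the robust fit and a mean count of at least 50 (KLF6 each time), 1 without the GC trend (JUN), 2 without the span trend (JUN and KLF6), 3 with no low-count filter (JUN, KLF6 and MNAT1), and 0 to 9 when each library was left out, the 9 without knockdown library c. Why these counts differ was not tested, except that the trend fits hold fewer genes (15938) and the fit without a filter more (32300). Libraries of one letter were not treated as pairs, since the labels do not say that letters mark a shared day or culture. Deviations from the group means correlated at 1.23e-05, 0.116 and -0.0251 for a, b and c, which cannot show how the libraries were handled. At this depth the lowest members, MED11, MED8, MED31 and MED30, had SEs of 0.12 to 0.21 on the log2 scale, which are not limits of detection. CDK19, at -0.41 ± 0.09 (SE), did not pass the threshold in the main fit. Changes of several SEs could therefore go uncalled in these low members.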
